A study of Homo sapiens with 6 samples.

Results

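Keratins are the intermediate filament proteins of epithelial cells, and a keratin filament forms from paired chains, an acidic type I chain and a basic type II chain. The type I genes lie together on chromosome 17 and the type II genes on chromosome 12, where the type I gene KRT18 also lies. In the breast, luminal cells are recognised by KRT7, KRT8, KRT18 and KRT19, basal and myoepithelial cells by KRT5, KRT14 and KRT17, and the hair keratins KRT81 and KRT86 are known best from the cortex of the hair shaft.

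RNA-seq counts of 10 keratin genes were compared between MDA-MB-231 cells carrying a non-targeted control shRNA and PELP1-KD cells carrying a PELP1 shRNA. The genes were taken by symbol and consisted of the luminal KRT7, KRT8, KRT18 and KRT19, the basal KRT5, KRT14 and KRT17, the hair keratins KRT81 and KRT86, and KRT80, a type II keratin of epithelia found near cell junctions. All 10 were among the 23228 genes listed, which included 45 other keratin genes. MDA-MB-231 is a human triple-negative breast cancer line with mesenchymal features, and PELP1 is a nuclear scaffold protein that acts as a coregulator of steroid receptors. Each group had 3 samples of puromycin-selected cells stably transduced with lentivirus, grown in RPMI medium with serum, and a single PELP1 shRNA sequence was used. The labels did not say whether the samples came from separate cultures or transductions, so p-values measure only the spread between these samples, which may be technical.

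The libraries held between 17304864 and 23132102 reads on genes, so that 3 reads, the upper limit that a count of 0 allows, corresponded to between 0.130 and 0.173 CPM, the reads on a gene scaled to a common library size. This limit was scaled by the total reads on genes, whereas the other CPM values use TMM library sizes and so differ slightly in scale. PELP1 had 968, 1274 and 1069 reads in the control samples and 557, 637 and 712 in the PELP1-KD samples, and its CPM fell from 57.8 ± 2.14 to 29.6 ± 0.876 (SD, n = 3; log2FC -0.97, SE 0.055, adjusted p-value 1.48e-11 by the edgeR quasi-likelihood test). The line was checked against its markers: the mesenchymal filament gene VIM reached 2221 CPM in the control samples and 1922 CPM in PELP1-KD, CDH1 had 0 to 4 reads in each sample, ESR1 0 to 1 and the basal transcription factor TP63 1 to 2. EPCAM, an epithelial surface marker, stood at 9.46 and 9.57 CPM.

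Several keratin genes share sequence with relatives, which bears on reads of 50 bases that are counted only where they map uniquely. Reads that mapped to more than 1 place made up between 32.5% and 32.9% of each library's tally and were assigned to no gene. As a guide to how much of each keratin this could touch, every 50-base window of its principal transcript was searched in all GENCODE 29 transcripts (GRCh38) on both strands. KRT18 shared 47.6% of its windows with another gene, KRT81 44.6%, KRT86 39.2% and KRT8 37.1%. KRT19 shared 1.79% and KRT80 0.420%. For KRT18 the leading partner was KRT8, whose annotated transcripts overlap it on the opposite strand, and for KRT8 it was the pseudogene KRT8P3. KRT8 held 326 of the 720 shared windows of KRT18, and the antisense gene KRT7-AS held 177 of the 184 of KRT7. Reads from windows shared only through such an overlap still map to 1 place. The shares of these genes therefore overstate what unique mapping removes. For KRT81 and KRT86 the main partner was the other hair keratin, with 721 windows in common.

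**Figure D1:**
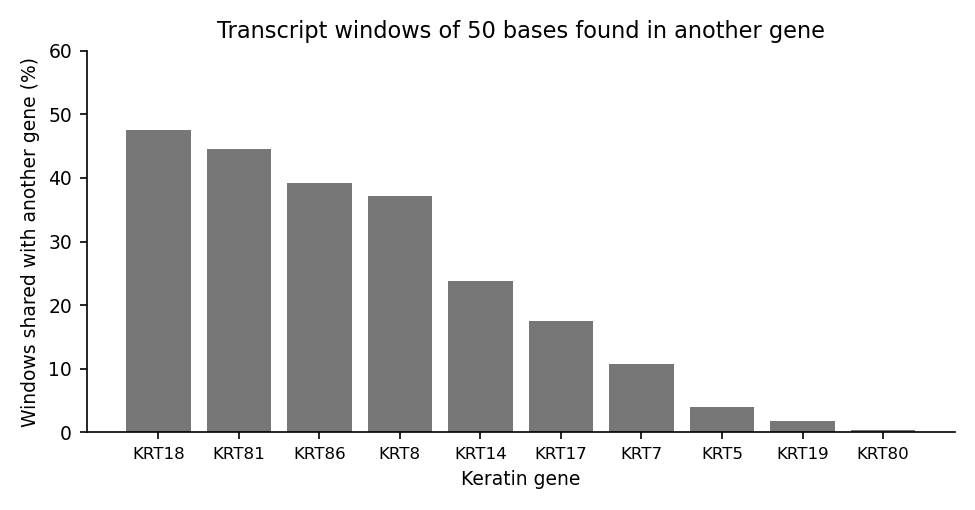
Bars give, for each of the 10 keratin genes on the horizontal axis, the percentage of 50-base windows of its principal transcript that also occur in a transcript of another gene. KRT18, KRT81, KRT86 and KRT8 lie between 37.1% and 47.6%, and KRT19 and KRT80 lie below 2%.

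The coding sequences of KRT81 and KRT86 were 93.6% identical, with 1361 of 1454 aligned bases the same and an identical run of 605 bases. Stretches of 100 coding bases are shown to let the reader see where a read can and cannot be assigned. They were read 5′ to 3′ from GENCODE 29, numbered from the A of each gene's own start codon, and capitals mark the bases at which the genes differ. Positions 1227 to 1326 hold 19 differences, the most of any such stretch:
KRT81: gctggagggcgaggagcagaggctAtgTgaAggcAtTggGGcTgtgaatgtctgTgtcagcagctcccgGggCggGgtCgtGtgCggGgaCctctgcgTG
KRT86: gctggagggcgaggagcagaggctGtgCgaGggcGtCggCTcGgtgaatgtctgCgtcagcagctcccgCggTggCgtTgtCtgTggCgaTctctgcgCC
Positions 61 to 160 hold 0 differences, and a read from here belongs to neither gene alone:
KRT81 and KRT86: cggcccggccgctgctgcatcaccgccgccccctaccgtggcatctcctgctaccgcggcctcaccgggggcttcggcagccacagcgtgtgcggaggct
Under unique mapping, the counts of each gene therefore come from the part of its sequence that differs from the other, apart from reads placed with mismatches.

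Of the 10 keratins, 7 had enough reads to be tested (KRT7, KRT8, KRT18, KRT19, KRT80, KRT81 and KRT86), and each of these 7 passed the adjusted p-value threshold of 0.05. KRT7, KRT80, KRT81 and KRT86 were upregulated and KRT8, KRT18 and KRT19 were downregulated. In this comparison 46.9% of the 12796 genes tested were called, 22.7% up and 24.2% down, so a call by itself was common. The median log2FC of the 7 was 0.23, beside 0.0014 over all genes tested. With a fold change over 2 also required, 0 of the 7 were called, beside 3.24% of all genes. The samples of both groups did not overlap for any of the 7 genes, which was true of 55.0% of genes tested. Ranked by the size of log2FC, KRT19 exceeded 96.3% of all tested genes, KRT81 96.1%, KRT86 95.6% and KRT80 90.6%. KRT7, KRT18 and KRT8 lay in the middle of that range, at 62.8%, 59.2% and 41.1%.

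**Figure D2:**
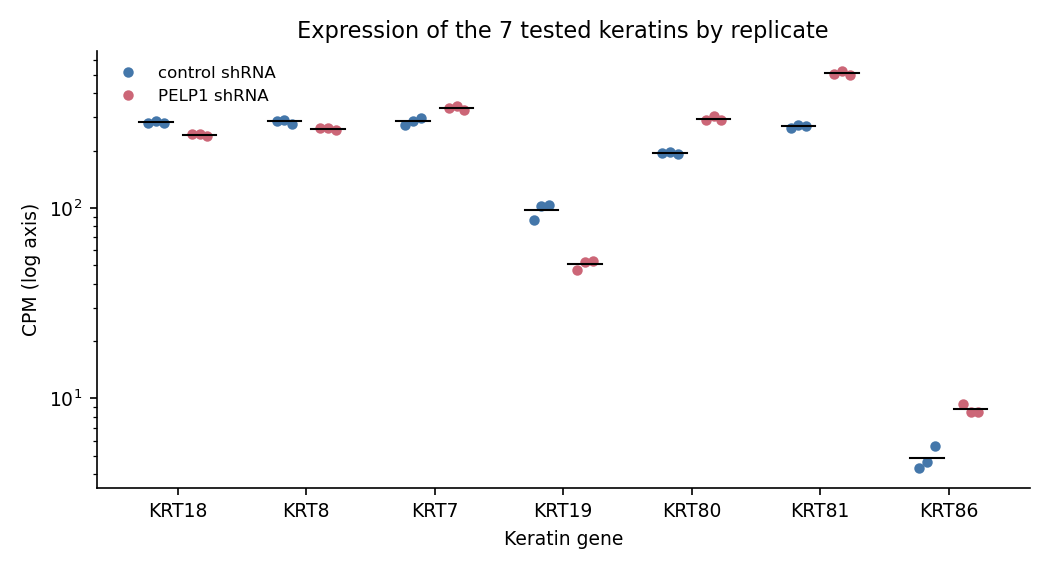
CPM of the 7 tested keratins on a log axis, with 1 point for each of the 3 control shRNA samples (blue) and 3 PELP1 shRNA samples (red) and a bar at each group's mean. KRT81, with control samples from 263 to 271 CPM and PELP1 samples from 498 to 525 CPM, and KRT19, from 86.4 to 104 and from 47.3 to 52.9 CPM, show the widest separations among the well-expressed genes.

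KRT8 and KRT18 are the obligate pair of simple epithelia and are the first keratins to appear in the embryo. KRT18, the type I partner, measured 280, 285 and 277 CPM in control replicates 1, 2 and 3 and 244, 244 and 240 CPM in PELP1-KD replicates 1, 2 and 3. All PELP1-KD values lay below all control values, by a small margin: the mean went from 281 ± 3.88 to 242 ± 2.47 CPM (log2FC -0.21, SE 0.031, adjusted p-value 1.18e-05). In bulk RNA, fewer cells of a type and less RNA per cell cannot be told apart. KRT8, the type II partner, measured 286, 291 and 277 CPM in control and 262, 262 and 256 CPM in PELP1-KD. Its fall was the smallest of the 7 (log2FC -0.13, SE 0.032, adjusted p-value 0.00202). The ratio of KRT8 to KRT18, taken per kilobase of transcript, was 0.841 ± 0.00986 in control and 0.889 ± 0.00328 in PELP1-KD, with all 3 PELP1-KD ratios above all 3 control ratios (two-sided exact permutation p = 0.1, the smallest that 3 against 3 allows). The overlap of the KRT8 locus (chr12:52897187-52949954, minus strand, GRCh38) with KRT18 (chr12:52948871-52952901, plus strand) lies at the annotated 5′ ends of both genes, on opposite strands, and the strand setting of the counting is not given in the sources used here.

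KRT7 is the type II keratin of ducts and glands, and KRT19, the smallest keratin, is a type I chain of luminal and ductal cells that lacks most of the tail domain. These luminal genes moved in opposite directions. KRT7 measured 271, 284 and 298 CPM in control and 334, 343 and 325 CPM in PELP1-KD, a separation of groups with a log2FC of 0.23 (SE 0.036, adjusted p-value 1.96e-05). KRT19 measured 86.4, 103 and 104 CPM in control and 47.3, 51.8 and 52.9 CPM in PELP1-KD. Replicate 1 was the lowest in each group, and the highest PELP1-KD sample remained well under the lowest control sample. Mean KRT19 was 97.8 ± 9.88 CPM in control and 50.7 ± 2.98 CPM in PELP1-KD, 48.2% lower (log2FC -0.95, SE 0.063, adjusted p-value 1.53e-10). Its coefficient of variation over the control samples, 10.1%, was above that of KRT18 (1.38%), KRT8 (2.41%) and KRT7 (4.80%). The ratio of KRT7 to KRT19 per kilobase rose from 2.31 ± 0.151 to 5.24 ± 0.365, and the ratio of KRT19 to its fellow type I chain KRT18 went from 0.391 ± 0.0396 to 0.235 ± 0.0155 (exact permutation p = 0.1 each, the smallest possible). The p-value for KRT7 to KRT19 was fixed in advance, because the groups of both genes were already separated in opposite directions. KRT19 also had few windows shared with other genes, so its reads were nearly all assignable.

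KRT80 measured 194, 196 and 192 CPM in the control samples and 290, 303 and 288 CPM in PELP1-KD. The control samples were nearly identical (coefficient of variation 0.907%), and every PELP1-KD sample stood far above them. Mean KRT80 rose from 194 ± 1.76 to 294 ± 8.48 CPM, a 1.51-fold increase (log2FC 0.60, SE 0.033, adjusted p-value 9.77e-12). KRT80 also had the lowest share of windows found in another gene among the 10 genes.

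KRT81 and KRT86 are type II hair keratins whose mutations cause monilethrix, a disorder of fragile, beaded hair. KRT81 had 4455, 6163 and 4782 reads in control and 9806, 11206 and 11732 reads in PELP1-KD, or 263, 271 and 269 CPM against 503, 525 and 498 CPM. The samples of each group lay close together and far from the other group. The mean rose 1.90-fold, from 268 ± 4.06 to 509 ± 14.3 CPM (log2FC 0.92, SE 0.031, adjusted p-value 2.89e-15). KRT86 had far fewer reads: 73, 105 and 100 in control and 183, 182 and 201 in PELP1-KD, with a mean of 4.86 ± 0.689 and 8.82 ± 0.492 CPM (log2FC 0.86, SE 0.12, adjusted p-value 5.82e-06). The groups did not overlap for either gene.

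Since reads of both genes could be exchanged between them, their counts were also summed and tested as 1 row. The sum gave a log2FC of 0.92 (SE 0.031, adjusted p-value 2.79e-15), which is that of KRT81, the gene holding nearly all the reads. KRT81 had 55.8 ± 7.05 reads for each KRT86 read in control and 57.8 ± 4.02 in PELP1-KD, and the group ranges overlapped (exact permutation p = 0.7, with 0.1 the smallest possible). The KRT86 locus (chr12:52249300-52309163, plus strand) spans the whole of KRT81 (chr12:52285913-52291534, minus strand) and overlaps the end of KRT7 (chr12:52232520-52252186, plus strand). How much of the KRT86 count came from KRT81 transcripts was not tested.

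KRT85 and KRT83, type II hair keratins from the same end of the cluster, had few reads, and neither was called up. KRT85, a keratin of the hair matrix and cuticle, had 23, 46 and 23 reads in control and 1, 0 and 4 in PELP1-KD. All control samples were above all PELP1-KD samples, and the fitted log2FC was -4.26 (SE 0.49, adjusted p-value 4.79e-07), larger in size than that of 99.9% of genes tested. With few reads the size is loosely determined: the ratio of 92 pooled control reads to 5 pooled PELP1-KD reads, each over the pooled TMM library sizes, was 20.6, with a 95% exact interval for counting error alone of 8.53 to 65.1. Without PELP1-KD replicate 3 the log2FC was -5.70, and without PELP1-KD replicate 2 it was -3.71. KRT83, whose coding sequence is 93.4% identical to KRT81, had 5, 22 and 5 reads in control and 5, 6 and 5 in PELP1-KD and was not tested. In reads, only control replicate 2 stood well above the rest. As CPM, the control samples (0.296, 0.968 and 0.282) lay above the PELP1-KD samples (0.257, 0.281 and 0.212), narrowly apart from control replicate 2. KRT85 is 85.6% identical to KRT81 over the aligned coding bases, and its locus (chr12:52360006-52367481) starts 74.1 kb from that of KRT81.

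The basal keratins had few reads or none. KRT5, the type II keratin of basal cells, had 0 reads in all 6 samples. Its partner KRT14 had 1 read, in PELP1-KD replicate 1. KRT17, a type I keratin of basal-like tumours and of wounded epidermis, had 0 reads in every control sample and 6, 3 and 0 reads in PELP1-KD replicates 1, 2 and 3. None of the 3 passed the filter for testing, and a level up to 3 reads is what a count of 0 allows. With the filter removed, KRT17 had an adjusted p-value of 0.0206 and KRT14 one of 0.519, both resting on these few reads. KRT17 had a read in 2 of 3 PELP1-KD samples and in 0 of 3 control samples.

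Read counts scale with transcript length, so levels were compared between genes as RPKM, the CPM divided by the kilobases of the principal transcript. In control cells the mean order was KRT18 (180 RPKM), KRT7 (162), KRT8 (151), KRT81 (139), KRT19 (70.3), KRT80 (50.3) and KRT86 (2.32), and KRT7 and KRT8 overlapped between samples. In PELP1-KD cells the order was KRT81 (264 RPKM), KRT7 (191), KRT18 (155), KRT8 (138), KRT80 (76.1), KRT19 (36.5) and KRT86 (4.22), and no neighbours among these 7 overlapped. On this scale KRT81 went from the fourth place to the first, and KRT80 and KRT19 exchanged places. When only the unique windows were used as the length, KRT18 and KRT81 stood at 354 and 257 in control and at 306 and 488 in PELP1-KD, so KRT81 went from the second place to the first. That length leaves out the windows KRT18 shares with the overlapping KRT8, from which reads may still be counted. The KRT18 level may therefore be too high, and its place above KRT81 in control is not settled. KRT7 then stood below KRT8 in control (187 against 247), and in PELP1-KD their samples overlapped (means of 220 and 225).

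Added together, the 10 keratins measured 736, 766 and 762 RPKM in the control samples and 860, 883 and 850 RPKM in the PELP1-KD samples. The luminal keratins made up 74.6% ± 0.240 of this sum in control and 60.2% ± 0.340 in PELP1-KD. The hair keratins made up 18.7% ± 0.0993 and 31.0% ± 0.253, nearly all of it KRT81. KRT80 contributed 6.67% ± 0.149 and 8.80% ± 0.0917, and KRT19 9.31% ± 0.758 and 4.22% ± 0.263. KRT7 kept a similar share in both groups, 21.5% ± 0.730 and 22.0% ± 0.182, with overlapping samples. Shares of a sum are tied to each other, and the RPKM of each gene also depends on the length taken for it.

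**Figure D3:**
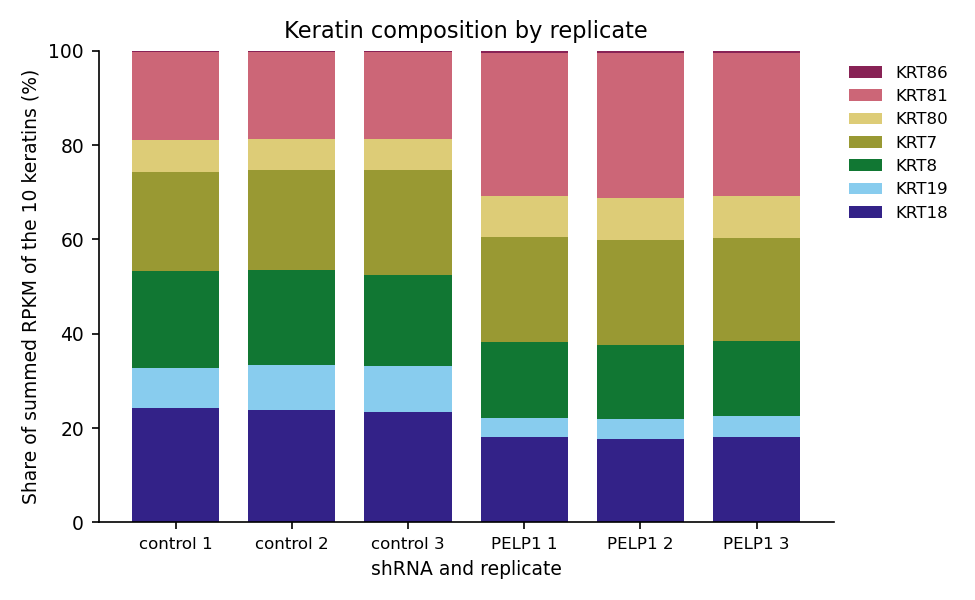
Stacked bars give the percentage of the summed RPKM of the 10 keratins held by each gene in each of the 6 samples, with the control shRNA samples at left and the PELP1 shRNA samples at right. KRT81 holds between 18.3% and 18.5% of the sum in the control samples and between 30.3% and 30.8% in the PELP1 samples, while the blocks of KRT18, KRT19 and KRT8 are thinner in the PELP1 samples.

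A filament needs type I and type II chains in equal amounts, so the RNA of both types was set against each other. Both type I members tested, KRT18 and KRT19, were downregulated, and 4 of the 5 type II members tested were upregulated, the exception being KRT8. Summed type II RPKM over summed type I RPKM was 2.05, 1.99 and 2.02 in the control samples and 3.52, 3.56 and 3.44 in the PELP1-KD samples. The groups did not overlap, and the log2 difference was 0.80 (two-sided exact permutation p = 0.1, the smallest that 3 against 3 allows). Both type I genes were already lower, and 4 of the 5 type II genes already higher, in every PELP1-KD sample. The p-value of this ratio therefore adds nothing to those separations. With the union of all exons in place of the principal transcript, a choice made after seeing the data, the difference was 1.03, and with all 55 keratin genes it was 0.73. The ratio of KRT81 to KRT8 went from 0.920 ± 0.0254 to 1.91 ± 0.0417 (exact permutation p = 0.1). This p-value was fixed in advance, because the groups of both genes were already separated in opposite directions.

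The direction of change was set beside the position of each gene. Ordered by start on chromosome 12 (GENCODE 29, GRCh38), where 27 keratin genes lie, KRT80, KRT7, KRT86 and KRT81 were the first 4 and were the 4 upregulated members. KRT80 (chr12:52168996-52192000) and KRT81 start 117 kb apart. Next to them, KRT83 was not tested and KRT85 was downregulated. Between KRT85 and KRT8 lie 19 keratin genes, among them KRT5, none with more than 3 reads over the 6 samples. KRT8 and KRT18, both downregulated, are the last of the 27, and KRT81 and KRT8 start 611 kb apart. On chromosome 17, with 28 keratin genes, KRT19 (chr17:41523617-41528308) started 9.87 kb from KRT15, which was also downregulated. The counts had been made on hg19 and carry no coordinates, so these positions come from the annotation by gene symbol.

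**Figure D4:**
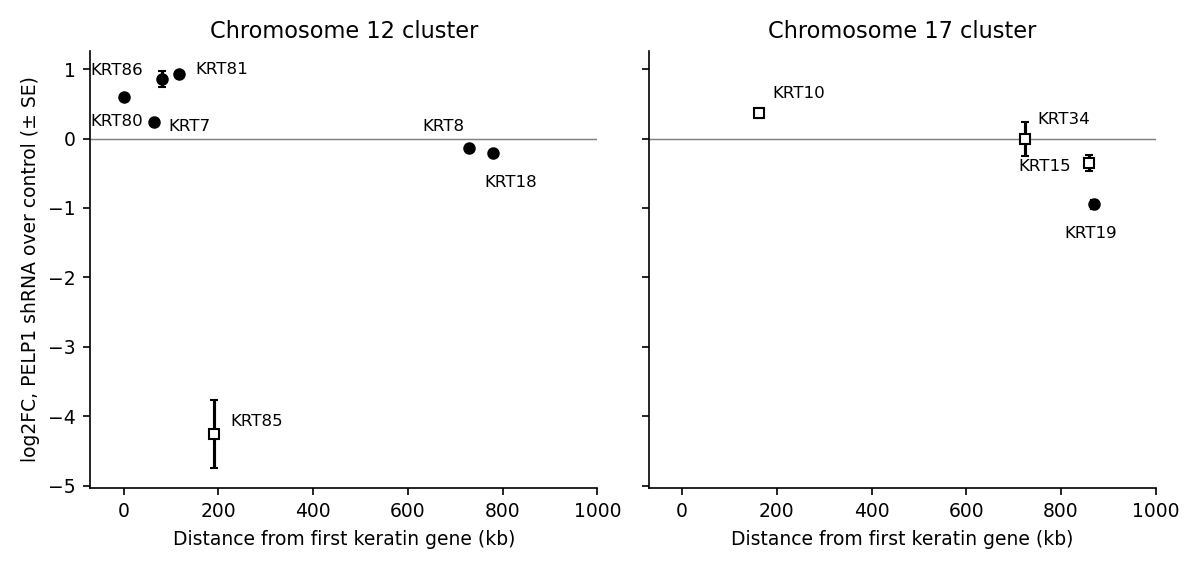
log2FC (PELP1 shRNA over control shRNA) of the tested keratin genes against the distance of the gene start from the first keratin gene of each chromosome, in kb; filled circles are members of the 10, open squares other keratins, and error bars are 1 SE. KRT80, KRT7, KRT86 and KRT81 lie above 0 within 117 kb of the start of the chromosome 12 cluster, KRT85 lies far below 0 next to them, and KRT8 and KRT18 lie just below 0 at the other end.

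The nearest tested genes other than keratins on either side of the members were 4, of which 2 were upregulated and 1 was downregulated. Over all genes tested, 46.9% were called. Gaps to a member ran from 53257 bases (EIF4B to KRT18) to 871377 bases (C12orf44 to KRT18). Of the 12796 genes tested, 12275 could be placed on the annotation, so a nearer gene may have been missed. Beside KRT80, C12orf44 was upregulated (log2FC 0.18, SE 0.054, adjusted p-value 0.00819). Beyond KRT18, the translation initiation factor gene EIF4B was downregulated (log2FC -0.30, SE 0.040, adjusted p-value 4.62e-06). On chromosome 17, EIF1, a factor for start codon selection, was upregulated (log2FC 0.12, SE 0.028, adjusted p-value 0.00164). TMEM99, which lies within the keratin cluster between KRT10 and KRT12, was not called (log2FC 0.09, adjusted p-value 0.246). In size, EIF4B lay above KRT7, KRT18 and KRT8 and below KRT80, KRT81, KRT86 and KRT19, and C12orf44 lay above KRT8 alone among the 7, a comparison that was not tested.

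Among the 45 other keratins, 4 were tested, of which 1 was upregulated and 2 were downregulated. Over all genes tested, 22.7% were called up and 24.2% down. KRT10, the type I keratin of differentiating epidermis, measured 33.1, 35.9 and 43.9 CPM in control and 48.2, 48.5 and 48.8 CPM in PELP1-KD (log2FC 0.37, SE 0.073, adjusted p-value 3.31e-04). It was the only type I keratin called up, against KRT15, KRT18 and KRT19 called down. KRT15, a keratin of basal keratinocytes and the hair follicle bulge, had 8.87, 7.52 and 8.11 CPM in control and 6.46, 5.95 and 6.67 CPM in PELP1-KD (log2FC -0.35, SE 0.11, adjusted p-value 0.0129). This call was lost without PELP1-KD replicate 2 (adjusted p-value 0.0588) and with DESeq2 (adjusted p-value 0.0509). KRT34, a type I hair keratin and so a possible partner class for KRT81, had 20 to 31 reads in each sample and was not called (log2FC -0.0031, SE 0.25, adjusted p-value 0.993). The other keratin called down was KRT85. Of all 55 keratin genes, 32 had 0 reads in every sample. The keratin-associated proteins, which crosslink hair keratins in the hair shaft, had a read in 6 of 88 genes listed and no count above 2.

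Genes that share the filament system or mark the same cell types were counted from lists chosen with earlier results of these data known. Each count here and in the next paragraphs stands beside 22.7% of all genes tested called up and 24.2% called down. Of 7 tested genes of other intermediate filaments, 1 was upregulated and 3 were downregulated, with a median log2FC of -0.15. VIM, the mesenchymal filament, fell (log2FC -0.21, SE 0.029, adjusted p-value 7.19e-06), as did the nuclear lamins LMNB1 (log2FC -0.18) and LMNA (log2FC -0.15), while the neural progenitor filament NES rose (log2FC 0.36). The NES call was lost without PELP1-KD replicate 3. Of 20 tested genes for keratin linkers and desmosomes, 2 were upregulated and 10 downregulated (median log2FC -0.09). DST, which anchors keratin at hemidesmosomes, measured 209, 202 and 194 CPM in control and 141, 138 and 139 CPM in PELP1-KD (log2FC -0.53), and the integrin chain ITGB4 (log2FC -0.47) and the desmosomal protein PERP (log2FC -0.41) also fell. JUP, plakoglobin, rose from 23.5 ± 2.02 to 32.3 ± 1.79 CPM (log2FC 0.46), and FBF1, a keratin-binding protein, rose by a log2FC of 0.58.

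The cornified envelope list, proteins of the outer skin that are crosslinked over keratin filaments, had 3 tested genes of 24, and all 3 were upregulated (median log2FC 0.73). FLG, filaggrin, which bundles epidermal keratins, measured 59.5, 59.5 and 57.2 CPM in control and 98.6, 97.3 and 95.2 CPM in PELP1-KD, with no overlap (log2FC 0.72, SE 0.045, adjusted p-value 4.86e-11). The transglutaminase gene TGM1 (log2FC 0.93, adjusted p-value 0.0216) and CNFN (log2FC 0.73, adjusted p-value 0.0368) were each near 1 CPM. For CNFN the groups overlapped, with PELP1-KD replicate 1 at 0.975 CPM and control replicate 2 at 1.19 CPM. The list's count up was 1 with DESeq2, without control replicate 3 and without PELP1-KD replicate 3. Of 8 tested hair follicle factors, 4 were upregulated and 2 downregulated (median log2FC 0.26). They included DLX3, a homeobox gene of hair and tooth development (log2FC 1.08), the vitamin D receptor VDR (log2FC 0.54), and MSX2 (log2FC 0.41), while FOXQ1 (log2FC -0.32) and EDARADD (log2FC -0.31) fell. DLX3 had only 7 to 30 reads in each sample. HOXC13, a known activator of hair keratin genes, had 0 to 1 reads in each sample. With DESeq2 the counts of this list were 2 up and 1 down, without control replicate 2 the count up was 2, and the count down was 1 without control replicate 3, PELP1-KD replicate 2 or PELP1-KD replicate 3.

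**Figure D5:**
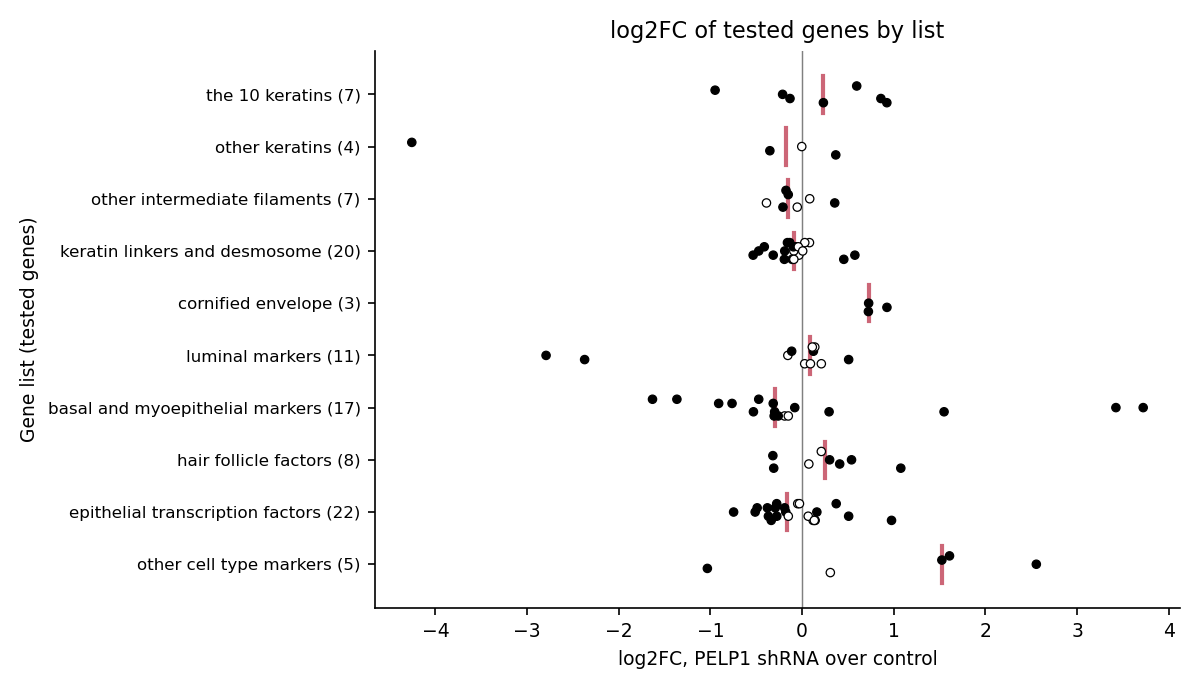
log2FC (PELP1 shRNA over control shRNA) of each tested gene by list, with filled points for genes past the adjusted p-value threshold, open points for the rest, and a red bar at the median of the list; the number of tested genes stands in parentheses. The cornified envelope genes all lie above 0, and the basal and myoepithelial list has members far out on both sides, from -1.63 to 3.72.

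Luminal markers other than keratins were divided, with 2 of 11 tested upregulated and 3 downregulated (median log2FC 0.09). SPDEF, a transcription factor of luminal differentiation, fell from 4.79 ± 0.591 to 0.701 ± 0.290 CPM (log2FC -2.79, SE 0.22, adjusted p-value 2.70e-09), and FOXA1, the pioneer factor of luminal cells, fell from 0.974 ± 0.280 to 0.191 ± 0.181 CPM (log2FC -2.37, SE 0.49, adjusted p-value 5.10e-04). FOXA1 had 11, 26 and 20 reads in control and 7, 0 and 5 in PELP1-KD, so its size is loosely determined. CLDN4 fell slightly (log2FC -0.11). ELF3 (log2FC 0.51) and XBP1 (log2FC 0.12) rose, but the count up dropped to 1 or 0 without any 1 of the 6 samples. The count down was 2 with DESeq2, with library totals and with at least 10 counts required in every sample. It was also 2 without control replicate 2, PELP1-KD replicate 1 or PELP1-KD replicate 3. GATA3, the master regulator of luminal fate, was not called (log2FC 0.21, adjusted p-value 0.107).

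In the basal and myoepithelial list, 4 of 17 tested genes were upregulated and 11 downregulated (median log2FC -0.30). The fallers included the neurotrophin receptor NGFR (log2FC -1.63) and the basal cadherin CDH3 (log2FC -1.37), the latter with 4 to 13 reads in each sample. The largest rises were those of CNN1, from 0.472 ± 0.189 to 6.48 ± 0.469 CPM (log2FC 3.72), ACTG2 (log2FC 3.42) and TAGLN, from 42.3 ± 0.755 to 124 ± 4.23 CPM (log2FC 1.55). ACTG2 had 1, 1 and 2 reads in control and 13, 23 and 16 in PELP1-KD, so its size is loosely determined. ACTA2, the smooth-muscle actin of myoepithelial cells, was not called (log2FC -0.19, adjusted p-value 0.594). With at least 10 counts required in every sample, 2 of this list were called up. Of 22 tested epithelial transcription factors, 5 were upregulated and 11 downregulated (median log2FC -0.16). EHF, an epithelial ETS factor, went from 85.7 ± 2.77 to 51.1 ± 2.26 CPM (log2FC -0.75), and TFAP2C (log2FC -0.51) and KLF4 (log2FC -0.49) also fell. SNAI1, a repressor of epithelial genes, rose from 4.71 ± 0.234 to 9.27 ± 1.11 CPM (log2FC 0.98), whereas ZEB1, a further such repressor, fell from 78.9 to 60.7 CPM (log2FC -0.38, adjusted p-value 7.19e-06). RARA, a retinoic acid receptor gene, also rose by a log2FC of 0.37. Unlike VIM and ZEB1, the mesenchymal marker FN1 rose, from 172 to 224 CPM (log2FC 0.38, adjusted p-value 1.08e-08 by the edgeR test). The mesenchymal marker CDH2 had 4 to 22 reads in each sample and was not called. ITGB4, ELF3 and GATA3 each stand in 2 of these lists.

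Markers of leukocytes, endothelium and fibroblasts were counted beside these results. Of 15 such genes 5 were tested, with 3 upregulated and 1 downregulated, and their summed level ranged from 22.7 to 28.2 CPM in control and from 65.0 to 70.3 CPM in PELP1-KD. Most of this was PDGFRB, at 15.7 and 45.6 CPM (log2FC 1.53, SE 0.069), and COL1A1, at 5.84 and 18.1 CPM (log2FC 1.61, SE 0.11). VWF rose from 0.108 to 0.744 CPM (log2FC 2.56), and KDR fell (log2FC -1.03). VWF had 1, 6 and 0 reads in control and 12, 20 and 16 in PELP1-KD, so its size is loosely determined. PTPRC and DCN, which define leukocytes and fibroblasts, had 0 reads in all 6 samples, and PECAM1 had 2 to 7 reads in each. The part of these genes in the keratin results was not tested.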

How the data were processed

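Per the labels, poly(A) RNA of 6 samples was made into stranded libraries and sequenced as single reads of 50 bases. The submitters' processing notes name bcl2fastq, TopHat2, SAMtools, HTSeq and hg19; versions, annotation and strand setting are not given in the sources used here. The deposited values were raw counts per gene, 1 file per sample, as the authors' counting gave them. Rows naming no gene (41.0% to 41.4% of each tally) were left out. Genes passing filterByExpr (minimum count 10) were normalised by TMM and tested with edgeR 4.0.16 (R 4.3.3) by the quasi-likelihood test with Benjamini-Hochberg adjustment over 12796 genes, on 3 control shRNA and 3 PELP1 shRNA samples; SE is |log2FC| divided by the square root of F. CPM use TMM library sizes, and the SD is over samples. Alternatives were DESeq2 1.42.0, limma 3.58.1 (voom), size factors of DESeq2 type, library totals, other filters, a replicate block and leaving out each sample. Ratios were tested by exact permutation (scipy 1.17.1). Between replicates of a group chi-square per degree of freedom was 1.46 to 3.99, more than counting error alone gives. Control replicate 1 stood apart from replicates 2 and 3 (3.74 and 3.99, against 1.46 between those). PELP1-KD replicate 2 stood apart from replicates 1 and 3 (2.67 and 2.64, against 1.50). On data simulated with the same dispersion for every gene (12705 genes), 87 of 99 genes changed by 0.5 log2 and 97 of 100 changed by 1 were recovered, and 5 of 12506 unchanged genes were called. Few genes were changed there, whereas 46.9% were called in the real data, so these rates may not hold for it. Lengths, positions and sequences come from GENCODE 29 (GRCh38), with the APPRIS principal transcript of each gene, and coding sequences were aligned with Biopython 1.88. All intervals cover counting error only. The members and lists were chosen with earlier results of these data known. Named genes were all 10 members, PELP1, other keratins that were tested, the 3 largest rises and falls past the threshold in each list, defining markers and called flanking genes; KRT83, TMEM99 and HOXC13 were named after their values were seen. The proteins and the promoter sequences of most members were not used here. Some genes that the naming rule would give are not reported here.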

Additional observations from a re-analysis of the deposited data

How the results depend on the processing

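Every tested keratin among the 10 kept its direction and its adjusted p-value under 0.05 in all 91 alternatives computed for them. log2FC ranged from 0.90 to 0.97 for KRT81, 0.79 to 0.97 for KRT86, 0.57 to 0.65 for KRT80, 0.20 to 0.28 for KRT7, -0.15 to -0.08 for KRT8, -0.22 to -0.16 for KRT18 and -1.03 to -0.90 for KRT19. With a fold change over 2 also required, 0 were called up and 0 down. Without the filter 5 were called up, the added gene being KRT17 with 9 reads in all. Of the other keratins, 2 were called down in the main test and 1 with DESeq2 or with at least 10 counts required in every sample, which removes KRT85, and 3 without the filter (KRT33B, edgeR adjusted p-value 0.0233); leaving out each sample gave 1 to 2. The log2 difference of the type II to type I ratio was 0.80, 0.73 over all keratins, and 0.79 to 0.81 leaving out each sample (exact p = 0.2); with lengths chosen after seeing the data it was 0.76 for unique windows and 1.03 for the union of exons. Scaling by library totals moved the median of all tested genes to 0.05 and gave 3817 genes up and 2418 down, against 2904 and 3103 with TMM. Deviations of same-numbered samples from their group means correlated at 0.04, 0.07 and -0.08, which shows no pairing by replicate number. With 3 samples per group this check cannot exclude a pairing. The replicate block called 3140 genes up and 3335 down. With the replicate block KRT81 had a log2FC of 0.93 (edgeR adjusted p-value 1.39e-24) and KRT19 -0.95 (3.85e-19), 4 members were up and 3 down, and no call of a keratin changed. Depth limits KRT14, KRT17, KRT83 and KRT85, which rest on few reads.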
